A study of Mus musculus with 8 samples.

Results

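The genes described here are 40 listed cell cycle and DNA replication genes, 17 of S phase and 23 of G2 and mitosis, out of the 54307 gene identifiers in the count table. They were chosen by name, with earlier results of these data known, and all 40 were found and passed the filter on low counts. RNA was taken from periventricular tissue that holds the ventricular-subventricular zone (V-SVZ), dissected from 1 hemisphere of each of 8 mice at 8 weeks of age. The mice were of strain 129, and each was 1 library. The 4 WT mice carried no modified *Lrig1* allele (replicates 1, 3 and 4 female, replicate 2 male). The 4 *Lrig1* KO mice carried CreERT2 knocked into both *Lrig1* alleles (replicates 2 and 4 female, replicates 1 and 3 male), so the gene was lost from the start of life and effects of development and of adult age cannot be told apart. Neither group received a treatment that the labels name. Totals ran from 47887437 to 74482334 estimated counts a mouse, and a member had between 31 and 2653 estimated counts in a mouse. *Lrig1* itself lay between 13.5 and 45.6 CPM (counts scaled to library size) in the WT mice and between 1.17 and 4.15 in the KO mice.

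The V-SVZ lines the lateral ventricles and is the largest germinal zone of the adult rodent brain. Its stem cells are mostly quiescent, and the activated stem cells, transit-amplifying progenitors and early neuroblasts that divide form a small part of the tissue. Cells commit to S phase when cyclin E and CDK2 release the E2F factors, replication origins are licensed by loading the MCM helicase, and DNA is copied with PCNA as the sliding clamp. In G2 the cyclins A and B with CDK1, the Aurora and Polo kinases, centromere proteins and kinesins are made, and the anaphase-promoting complex ends mitosis. LRIG1 is a membrane protein that restrains growth factor signalling, and the question of the study was how its loss acts on V-SVZ stem cells. A bulk library holds RNA of all these cells and of the striatum and other tissue beside them, so fewer dividing cells and less RNA per dividing cell cannot be told apart.

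S phase and mitosis genes are known for different promoter elements. These are E2F sites in S phase genes and the CHR (cell cycle genes homology region) with CCAAT boxes in mitosis genes. The part of these elements in the levels of the members was not tested. The 250 bases before the transcription start were read from RefSeq on GRCm38.p6, an older build than that of the counts, for the usual marker genes of each phase and for *Ccne1*. All lie on the minus strand and are written 5′ to 3′ along the gene. Capitals mark a match on either strand to the CHR, searched as the letters TTTGAA, to the CCAAT box, or to an E2F site, searched as TTTCCCGC, TTTGGCGC, TTTCGCGC or TTTGCCGC. None of these motifs contains another.
Pcna, chr2:132253181-132253430: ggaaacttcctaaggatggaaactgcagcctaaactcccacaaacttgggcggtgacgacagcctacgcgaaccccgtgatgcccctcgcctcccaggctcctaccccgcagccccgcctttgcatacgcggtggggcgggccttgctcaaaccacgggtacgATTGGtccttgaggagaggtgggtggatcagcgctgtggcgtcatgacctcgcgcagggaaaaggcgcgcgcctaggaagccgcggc
Mcm2, chr6:88898781-88899030: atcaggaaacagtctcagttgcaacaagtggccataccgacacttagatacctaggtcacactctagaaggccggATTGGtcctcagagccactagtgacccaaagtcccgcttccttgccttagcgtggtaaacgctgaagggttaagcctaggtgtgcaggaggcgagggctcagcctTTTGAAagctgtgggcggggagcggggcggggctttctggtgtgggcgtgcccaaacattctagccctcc
Ccne1, chr7:38107491-38107740: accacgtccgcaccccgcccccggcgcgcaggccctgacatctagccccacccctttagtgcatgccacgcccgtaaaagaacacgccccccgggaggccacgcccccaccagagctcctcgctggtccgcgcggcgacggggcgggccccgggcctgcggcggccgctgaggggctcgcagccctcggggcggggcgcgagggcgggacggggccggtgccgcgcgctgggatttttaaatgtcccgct
Mki67, chr7:135716380-135716629: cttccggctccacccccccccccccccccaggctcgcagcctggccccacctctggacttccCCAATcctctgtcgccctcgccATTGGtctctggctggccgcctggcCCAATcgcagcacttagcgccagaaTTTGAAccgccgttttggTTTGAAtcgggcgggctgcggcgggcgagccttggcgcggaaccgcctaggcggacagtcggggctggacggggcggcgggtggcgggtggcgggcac
Top2a, chr11:99024190-99024439: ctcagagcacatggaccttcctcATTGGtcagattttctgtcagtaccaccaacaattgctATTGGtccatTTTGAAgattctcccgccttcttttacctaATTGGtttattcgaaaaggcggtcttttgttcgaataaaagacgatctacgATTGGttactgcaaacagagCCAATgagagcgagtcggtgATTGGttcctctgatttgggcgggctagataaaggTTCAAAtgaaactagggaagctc
Cdk1, chr10:69352913-69353162: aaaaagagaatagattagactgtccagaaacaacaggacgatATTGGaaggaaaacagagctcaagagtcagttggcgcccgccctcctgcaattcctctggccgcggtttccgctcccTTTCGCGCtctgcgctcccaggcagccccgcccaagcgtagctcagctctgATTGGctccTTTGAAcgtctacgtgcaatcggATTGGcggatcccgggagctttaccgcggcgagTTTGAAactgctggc

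Windows were found for 33 of the 40 members, 16 windows of S phase genes and 20 of mitosis genes. The CHR was in 40% of the mitosis windows and 6.25% of the S phase windows, against 16.0% of all 32851 windows. An E2F site was in 37.5% of the S phase windows and 5.0% of the mitosis windows, against 1.86% of all. A CCAAT box was in 90.0% of the mitosis windows and 68.8% of the S phase windows, against 33.8% of all. The promoters shown hold 2 CHR matches in *Mki67*, 2 in *Top2a* and 2 in *Cdk1*, and 1 in *Mcm2*, while the windows of *Pcna* and *Ccne1* hold none. The only E2F match among them is in the mitosis gene *Cdk1*, and the S phase genes *Pcna*, *Mcm2* and *Ccne1* have none. These matches describe the letters of the windows and no binding was measured.

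Per length of transcript, S phase genes were the more abundant group in this tissue. In TPM, which scales reads by transcript length and depth, averaged over the 8 mice, the median was 3.43 for the 17 S phase genes and 1.46 for the 22 mitosis genes that have a TPM. *Pcna*, the clamp that holds the polymerase on DNA and also serves in repair, was highest at 38.3 TPM, and *Mcm7* followed at 12 TPM. *Cdc6*, which loads the MCM helicase at origins, was the lowest S phase gene at 0.307 TPM. *Top2a*, the topoisomerase that untangles sister chromosomes, was the highest mitosis gene at 5.35 TPM, and *Cenpf*, a large kinetochore protein, the lowest at 0.488 TPM. There were 2 S phase and 6 mitosis genes under 1 TPM. *Bub1* has no TPM here because the transcripts named in the reference used hold only 23.7% of its reads.

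**Figure D1:**
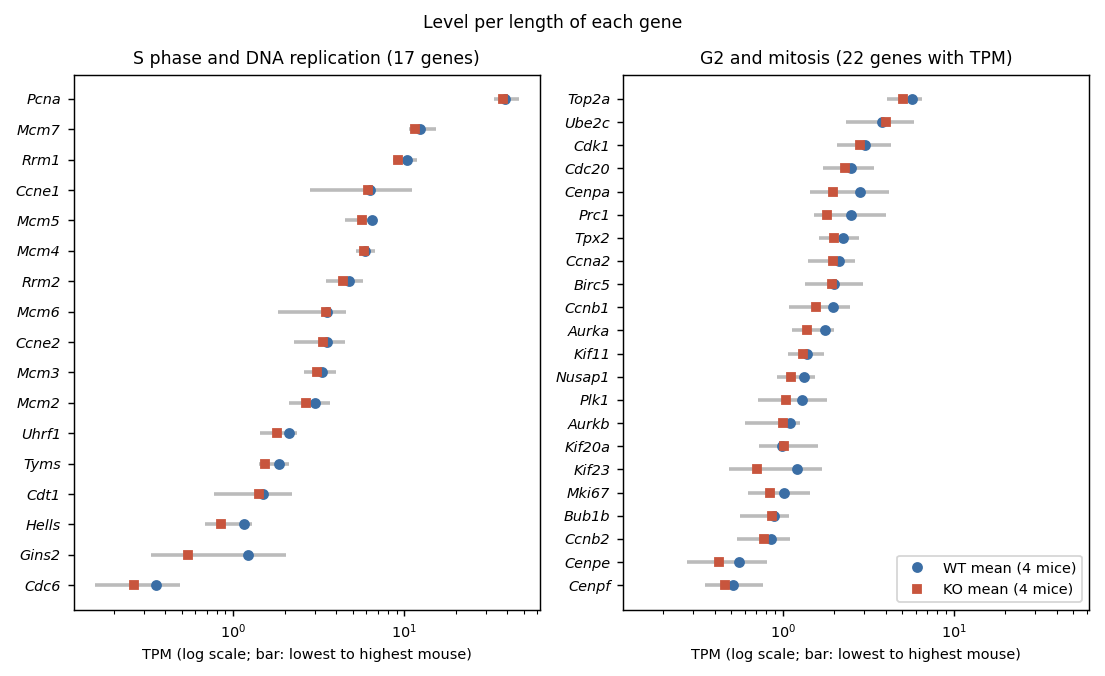
Level per length (TPM, log axis) of 17 S phase and 22 mitosis genes, with the mean of 4 WT mice (circles), the mean of 4 KO mice (squares) and a bar from the lowest to the highest mouse. *Pcna* stands highest at 38.3 TPM over all mice. The bar covers the same mice that the means are taken from, so each mean lies inside it by construction.

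KO was compared with WT to see whether loss of LRIG1 went with more RNA of dividing cells. No S phase gene and no mitosis gene passed the test, and most point estimates were slightly lower in KO. Past an adjusted p of 0.1 in edgeR's quasi-likelihood test there were 0 of 17 S phase genes and 0 of 23 mitosis genes, against a background of 0.00566% of the 17669 genes tested, which is 1 gene, neither a member nor *Lrig1*. *Lrig1* itself, with a log2 fold change of -3.80 (SE 0.52), did not pass in this fit (adjusted p = 0.286, edgeR), so a count of 0 here does not exclude large changes in genes that vary between mice. At an unadjusted p under 0.05 there were again 0 and 0, against a background of 1.88%, and DESeq2 gave no member past its threshold or under that unadjusted p. Adjusted p was 1.0 for all 40 members (edgeR, Benjamini-Hochberg over all genes tested). The direction was lower in KO for 14 of 17 S phase genes, with a median log2 fold change of -0.06, and for 19 of 23 mitosis genes, with a median of -0.07. Over all genes tested the median was -0.001 and 50.3% were lower in KO. The 33 members that were lower in KO became 20 without KO replicate 3, 23 without WT replicate 3, and 38 without KO replicate 1, so this count rests on single mice.

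The size of change these mice allow can be read from the 95% intervals, which cover counting error and the spread between mice. For S phase genes the upper bound of the KO over WT fold lay between 1.02 and 1.83 and the lower bound between 0.55 and 0.847. For mitosis genes the upper bound lay between 1.03 and 1.79 and the lower bound between 0.533 and 0.795. The upper bound was under 1.5 for 13 of the S phase and 19 of the mitosis genes. A p that misses the threshold does not show that the genotypes were alike. The intervals are not adjusted for the number of genes tested, so their bounds are no limit of what 4 mice a group could detect.

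**Figure D2:**
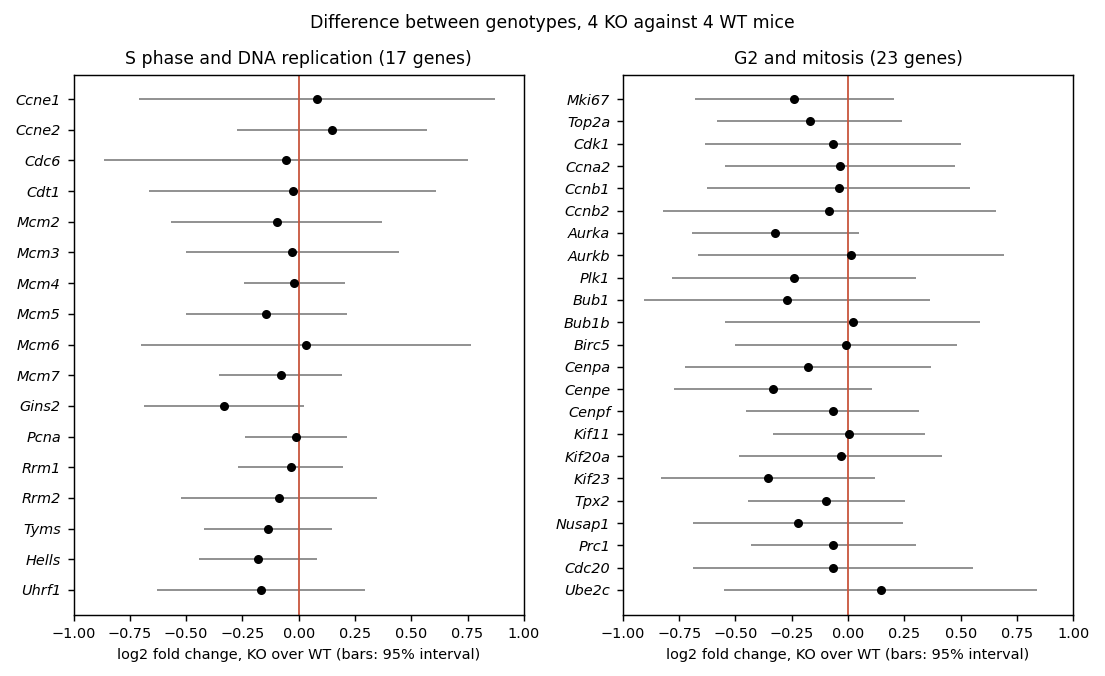
Log2 fold change of KO over WT (points) with 95% intervals (bars) from edgeR for 17 S phase and 23 mitosis genes, with 4 mice a genotype and a line at 0. Every interval holds 0, and the points run from -0.33 in *Gins2* to 0.15 in *Ccne2* for S phase and from -0.36 in *Kif23* to 0.14 in *Ube2c* for mitosis.

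Among S phase genes, the G1/S cyclins that activate CDK2 were the group with the highest median, 0.11 on the log2 scale over 2 genes. *Ccne2* had 6.94, 5.52, 6.03 and 5.06 CPM in WT replicates 1 to 4 and 7.91, 4.69, 7.66 and 5.82 CPM in KO replicates 1 to 4. The groups overlapped, with both male KO mice high, and the log2 fold change was 0.15 (SE 0.19, 95% interval -0.28 to 0.57). *Ccne1*, described because its values stood out once seen, had 6.91, 12.8, 4.31 and 6.77 CPM in WT and 6.64, 8.70, 11.8 and 5.38 CPM in KO. Its highest mouse was 2.97 times its lowest, the widest spread of any member, and WT replicate 2 and KO replicate 3 were the high mice of each group. These were also the mice with the most RNA of cortical excitatory neuron markers, whose summed level was 2023 CPM in WT replicate 2, 933.3 CPM in KO replicate 3 and 52.5 to 505.7 CPM in the other mice. The part of this in *Ccne1* was not tested.

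The origin licensing group holds *Cdc6* and *Cdt1*, the loaders, and *Mcm2* to *Mcm7*, the helicase subunits they load. Of these 8 genes 1 was higher and 7 were lower in KO by point estimate, with a median log2 fold change of -0.04 and a range of -0.14 to 0.03. *Mcm2* had 5.65, 7.72, 6.76 and 7.91 CPM in WT and 9.32, 6.09, 4.88 and 5.96 CPM in KO. KO replicate 1 was the highest of the 8 mice and KO replicate 3 the lowest, so the KO values enclosed all WT values (log2 fold change -0.10, SE 0.21). *Cdc6* had 0.935, 0.507, 1.21 and 0.673 CPM in WT and 0.879, 0.525, 0.597 and 1.20 CPM in KO. With 31 to 76 counts a mouse it had the least certain fold change of the S phase genes (log2 -0.06, SE 0.36). By ratio, *Mcm6* ranged most within the helicase, from 3.57 CPM in KO replicate 3 to 10.2 CPM in KO replicate 1, and *Mcm4* least, from 12.2 to 16.1 CPM.

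The replication fork group was *Pcna* and *Gins2*, a subunit of the GINS complex that joins the helicase at the moving fork. *Pcna* had 35.7, 39.1, 39.2 and 31.2 CPM in WT and 37.7, 31.7, 35.2 and 39.5 CPM in KO. The groups overlapped almost wholly, with a log2 fold change of -0.01 (SE 0.10) and a 95% interval of 0.847 to 1.16 on the fold scale. *Gins2* had 1.31, 1.46, 1.17 and 1.30 CPM in WT and 1.05, 1.08, 0.928 and 1.1 CPM in KO. All 4 KO values lay under the lowest WT value, the only member of the 40 of which this holds. The groups did not overlap for 1 of 17 S phase genes and 0 of 23 mitosis genes. Of all genes tested 1.53% did not overlap and 0.877% had KO below WT, so 1 gene of 40 does not stand apart. The log2 fold change of *Gins2* was -0.33 (SE 0.16, 95% interval -0.69 to 0.02), which did not pass (adjusted p = 1.0, edgeR). *Gins2* rests on 54 to 89 counts a mouse, and its exons overlap those of *Gse1* on the opposite strand.

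The estimated TPM of the transcripts of *Gins2* differed more between mice than its counts. A retained-intron transcript of 511 bases was listed at 1.40 TPM in WT replicate 3, 1.38 TPM in WT replicate 4 and 0.749 TPM in KO replicate 3, and at 0 in the other mice. These values rest on only 14.3, 10.5 and 9.15 estimated reads, so they show no reliable difference in this transcript between mice. The coding transcript, which took 93.0% of the reads, lay between 0.243 and 0.592 TPM over all mice. The summed TPM of *Gins2*, 1.22 in WT and 0.541 in KO, therefore differs more than its CPM, and the short transcript carries most of that gap.

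Nucleotide supply was represented by *Rrm1* and *Rrm2*, the subunits of ribonucleotide reductase, and *Tyms*, which makes thymidylate. All 3 were lower in KO by point estimate, between -0.14 and -0.04 on the log2 scale, and none passed. *Rrm1*, found in most cells, varied little (27.5 ± 1.02 CPM in WT and 26.8 ± 3.82 in KO, SD, n = 4). *Hells* and *Uhrf1*, which keep DNA methylation and chromatin through replication, had log2 fold changes of -0.18 and -0.17. *Hells* was at 3.59 ± 0.238 CPM in WT and 3.17 ± 0.229 in KO (SD, n = 4), and the groups overlapped.

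**Figure D3:**
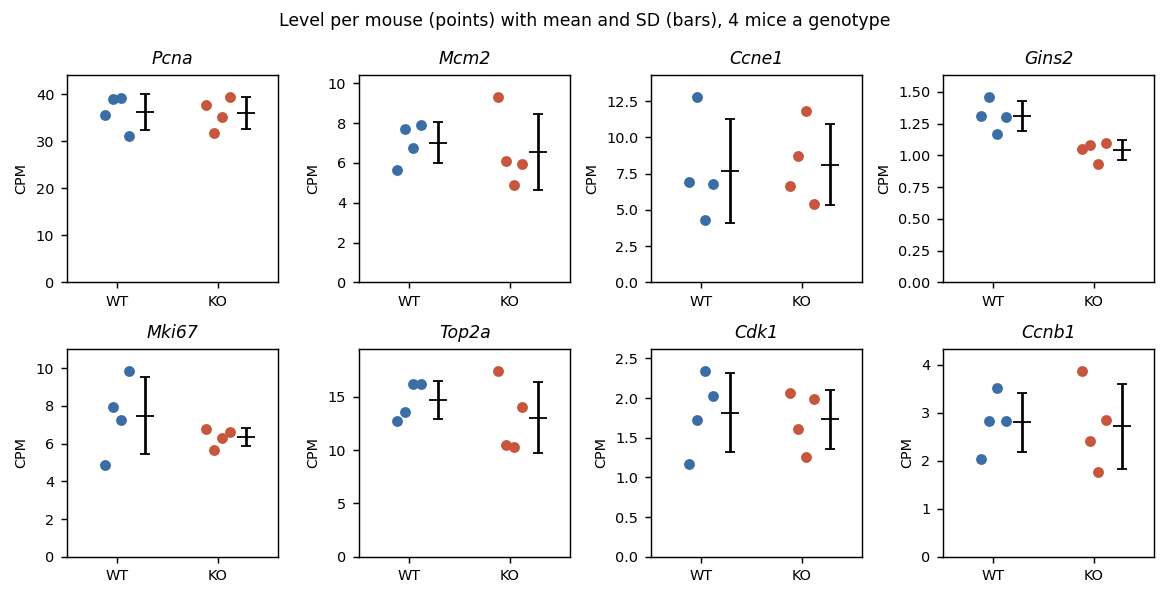
Level (CPM, axes from 0) of 4 S phase genes (top) and 4 mitosis genes (bottom) in each of 4 WT and 4 KO mice (points), with the mean and SD of each genotype (bars). Only *Gins2* has no overlap of the genotypes, and in *Mcm2*, *Top2a* and *Ccnb1* the highest mouse of all is KO replicate 1.

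Among mitosis genes, the marker of cycling cells *Mki67*, whose protein Ki-67 coats mitotic chromosomes, had 4.88, 7.94, 7.25 and 9.85 CPM in WT and 6.78, 5.69, 6.28 and 6.61 CPM in KO. The KO mice lay close together and within the range of the WT mice. The log2 fold change was -0.24 (SE 0.20), a fold of 0.848 with a 95% interval of 0.624 to 1.15. Without WT replicate 1, the lowest mouse, it was -0.40 with an unadjusted p of 0.0229 and an adjusted p of 1.0 (edgeR). *Top2a* had 12.7, 13.6, 16.2 and 16.2 CPM in WT and 17.4, 10.5, 10.3 and 14.0 CPM in KO. KO replicates 2 and 3 were below all WT mice and KO replicate 1 was above them (log2 fold change -0.17, SE 0.18).

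The mitotic entry genes are *Cdk1* and its cyclins *Ccna2*, *Ccnb1* and *Ccnb2*. All 4 had point estimates below 0, between -0.08 and -0.03. *Cdk1* had 1.17, 1.72, 2.34 and 2.02 CPM in WT and 2.07, 1.61, 1.26 and 1.99 CPM in KO, with WT replicate 1 and KO replicate 3 the low mice (log2 fold change -0.07, SE 0.25). *Ccnb1* had 2.03, 2.83, 3.52 and 2.83 CPM in WT and 3.87, 2.42, 1.76 and 2.85 CPM in KO. The KO mice again spanned a wider range than the WT mice, which they enclosed (log2 fold change -0.04, SE 0.26). *Ccnb2* was the rarest of the group by CPM, with 31 to 62 counts a mouse, where its pseudogene had up to 15 counts.

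The mitotic kinases and checkpoint genes, *Aurka*, *Aurkb*, *Plk1*, *Bub1*, *Bub1b* and *Birc5*, had a median log2 fold change of -0.12, with 2 higher and 4 lower. *Aurka*, the spindle pole kinase, was at 2.12 ± 0.305 CPM in WT and 1.69 ± 0.206 in KO (SD, n = 4). Its log2 fold change of -0.32 (SE 0.16) had the smallest unadjusted p of the mitosis genes, 0.0796, and did not pass (adjusted p = 1.0, edgeR). *Aurkb*, the kinase of the chromosomal passenger complex, had a log2 fold change of 0.01 and *Birc5*, its partner survivin, of -0.01. *Aurkb* was lowest in KO replicate 3 at 0.623 CPM and highest in KO replicate 1 at 1.78 CPM, both in the same genotype.

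At the centromere, *Cenpa*, *Cenpe* and *Cenpf* had a median of -0.18. *Cenpf* had 3.04, 4.14, 3.73 and 5.10 CPM in WT and 3.67, 3.55, 3.69 and 4.35 CPM in KO, with overlap (log2 fold change -0.07, SE 0.17). *Cenpe*, a kinesin that moves chromosomes to the spindle equator, had a log2 fold change of -0.33 (SE 0.19), and was at 1.64 CPM in KO replicate 2 and between 2.43 and 3.55 CPM in the other mice. In the 5 females alone it was -0.63 with an unadjusted p of 0.0342 and an adjusted p of 0.844 (edgeR). Of the reads of *Cenpa*, the centromeric histone, 44.6% were given to a transcript marked for nonsense-mediated decay and 41.7% to the main coding one.

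The spindle and cytokinesis genes were *Kif11*, *Kif20a*, *Kif23*, *Tpx2*, *Nusap1* and *Prc1*, of which 5 were lower in KO by point estimate (median -0.08). *Kif23*, a kinesin of the central spindle, had 1.78, 1.36, 1.79 and 2.08 CPM in WT and 1.78, 1.20, 1.09 and 1.42 CPM in KO. KO replicates 2 and 3 were below all WT mice, and KO replicates 1 and 4 lay within their range. The log2 fold change was -0.36 (SE 0.21), the most negative of all 40, and without KO replicate 1 it was -0.50 with an unadjusted p of 0.0402 and an adjusted p of 1.0 (edgeR). The mitotic exit genes *Cdc20* and *Ube2c* both serve the anaphase-promoting complex. *Ube2c* had 1.58, 1.87, 2.34 and 1.98 CPM in WT and 2.87, 1.64, 1.14 and 2.95 CPM in KO, so the KO mice held both the high and the low values (log2 fold change 0.14, SE 0.31).

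The members tended to be high or low together in the same mice, within both genotypes. The summed level of the 17 S phase genes was 159.9, 163.6, 174.2 and 161.3 CPM in WT replicates 1 to 4 and 184.9, 145.3, 147.2 and 163.4 CPM in KO replicates 1 to 4. The means were 164.8 ± 6.47 CPM in WT and 160.2 ± 18.3 in KO (SD, n = 4), so KO was at 97.2% of WT. The summed level of the 23 mitosis genes was 63.3, 74.3, 84.2 and 85.9 CPM in WT and 86.6, 61.5, 57.7 and 76.9 CPM in KO. The means were 76.9 ± 10.4 CPM in WT and 70.7 ± 13.5 in KO (SD, n = 4), or 91.9% of WT. The mitosis sum differed 1.5 times between the highest and the lowest mouse, both of them KO, and the S phase sum 1.27 times.

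**Figure D4:**
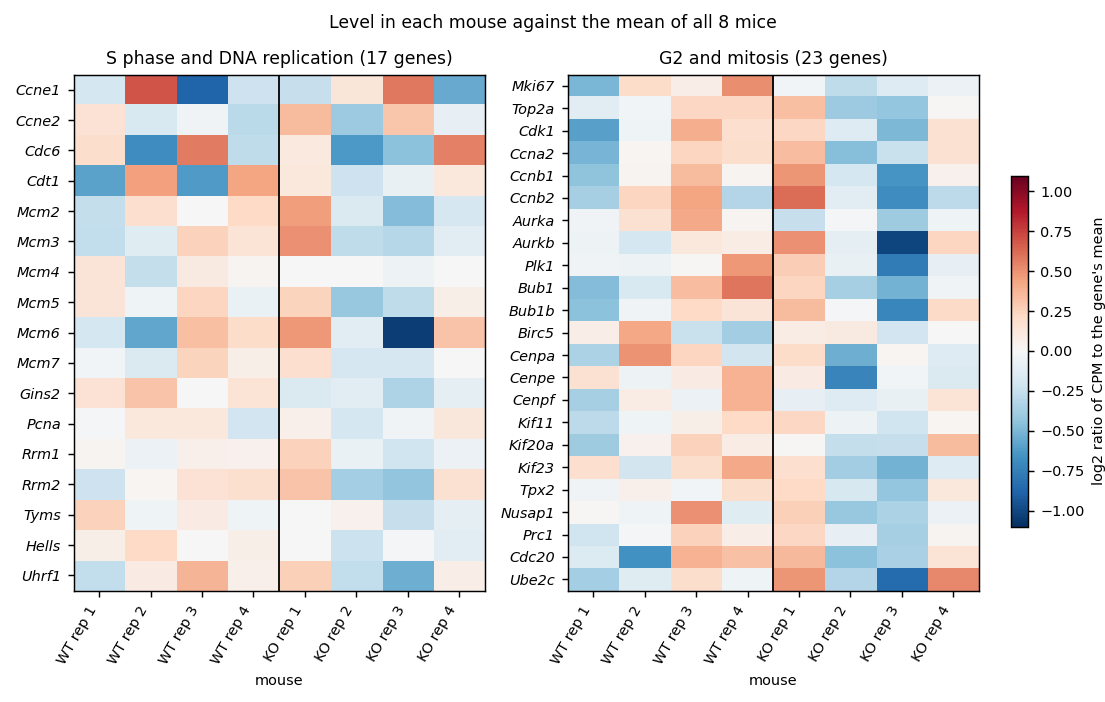
Log2 ratio of the CPM in each mouse to the gene's mean over the 8 mice, for 17 S phase and 23 mitosis genes (rows), with WT mice left and KO mice right of the line. Mitosis genes are mostly above their mean in WT replicates 3 and 4 and KO replicate 1 and below it in WT replicate 1 and KO replicates 2 and 3.

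KO replicate 3 had the lowest value of the 8 mice for 12 of 23 mitosis genes and 8 of 17 S phase genes. KO replicate 1 had the highest for 8 of the mitosis and 7 of the S phase genes. KO replicate 1 was above the gene's own mean in 20 of 23 mitosis genes and 14 of 17 S phase genes, and WT replicate 3 in 20 and 11. KO replicate 3 was above it in 1 and 2 genes, and KO replicate 2 in 1 and 3. WT replicate 3, WT replicate 4 and KO replicate 1 were all above WT replicate 1, KO replicate 2 and KO replicate 3 in 15 of 23 mitosis genes (65.2%) and 7 of 17 S phase genes (41.2%), against 5.71% of all genes tested. In the wider lists described below the same held for 19 of 64 other mitosis genes (29.7%) and 7 of 54 other S phase genes (13.0%), lower shares than among the members. The mice of these counts were chosen after their values were seen, so the counts describe these libraries and are no test. The high set holds both genotypes and both sexes, as does the low set.

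Markers of other cells are given for the same mice. The 6 markers of activated stem cells and progenitors summed to 40.4 CPM in WT replicate 1 and 41.0 in KO replicate 3, their lowest mice, and to 51.2 in WT replicate 4, their highest, with KO replicate 1 at 45.1. The 10 neuroblast markers lay between 498.2 and 604.3 CPM, highest in KO replicate 2. The 6 oligodendrocyte precursor markers, of another dividing cell type, lay between 188.8 CPM in WT replicate 2 and 311.8 CPM in WT replicate 4. The 8 cortical markers, of tissue outside the V-SVZ, differed 38.5 times between mice, and the 8 striatal markers 3.22 times, from 2354 CPM in WT replicate 2 to 7568 in WT replicate 3. The 6 microglia markers summed to 494.2, 397.1, 534.9 and 519.2 CPM in WT and 487.2, 379.3, 385.4 and 458.5 CPM in KO, with KO at 87.9% of WT. They were lowest in KO replicates 2 and 3, which were also low in mitosis genes, and highest in WT replicates 3 and 4, which were high in them. Other mice went the other way. WT replicate 1, low in mitosis genes, had 494.2 CPM of microglia markers, above KO replicate 1, highest in mitosis genes, at 487.2 CPM. The 8 astrocyte and stem cell markers lay between 4541 and 5209 CPM in WT and between 4237 and 4615 in KO, at 91.6% of WT. KO means of the remaining lists were 95.1% of WT for oligodendrocytes, 96.1% for endothelial and mural cells, 104% for ependymal cells and 111% for choroid plexus. Single mice differed far more in the last 2 lists. Ependymal sums ran from 28.8 CPM in KO replicate 3 to 66.9 CPM in KO replicate 2. Choroid plexus sums ran from 16.8 CPM in WT replicate 2 to 64.5 CPM in WT replicate 3. No marker of these lists was at 0 in every mouse. Their part in the levels of the members was not tested. Without WT replicate 2 and KO replicate 3, the mice with the most cortical RNA, 19 of 40 members were lower in KO, with medians of 0.001 for S phase and 0.02 for mitosis. Without KO replicate 3 alone 20 members were lower in KO. Without WT replicate 2 alone, the mouse with the highest cortical sum, 33 were lower, as with all mice.

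**Figure D5:**
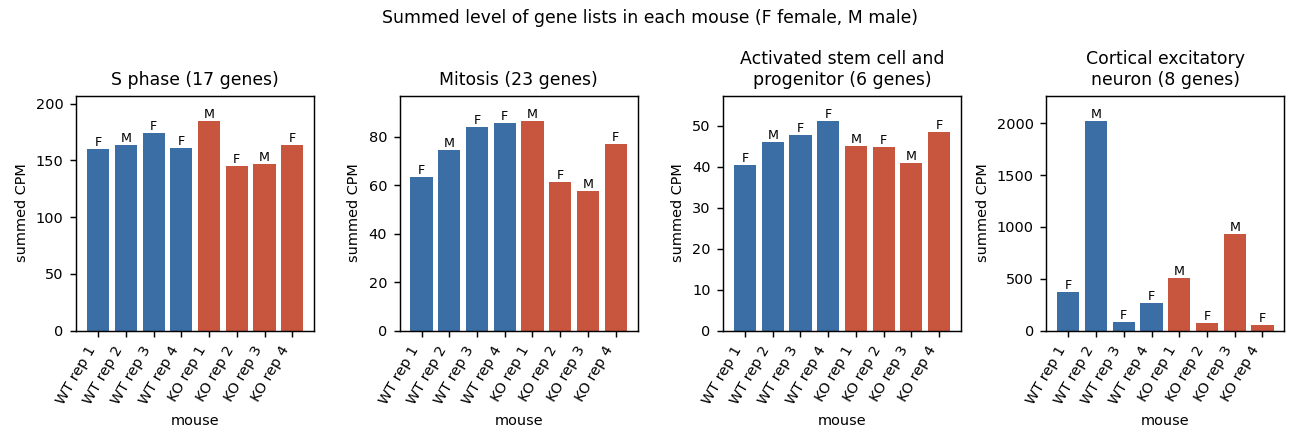
Summed CPM (axes from 0) of the 17 S phase genes, the 23 mitosis genes, 6 markers of activated stem cells and progenitors and 8 markers of cortical excitatory neurons in each mouse, with F for female and M for male. Mitosis sums run from 57.7 CPM in KO replicate 3 to 86.6 CPM in KO replicate 1, and the cortical sum is highest in WT replicate 2 at 2023 CPM.

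Further genes of the same processes were taken from wider lists. Of 54 other S phase and replication genes, 26 were higher and 28 lower in KO by point estimate (median -0.01, from -0.046 without KO replicate 1 to 0.004 without KO replicate 3), and 0 passed the adjusted threshold. An unadjusted p under 0.05 was found for 1 of the 54, near the background of 1.88%, and the groups did not overlap for 1 (1.85%, against 1.53% of all genes tested), so neither share stands apart. Both are *Pole*, the catalytic subunit of the leading-strand polymerase. It had 1.89, 2.26, 1.66 and 2.43 CPM in WT and 1.56, 1.64, 1.27 and 1.61 CPM in KO, without overlap of the groups (log2 fold change -0.44, SE 0.17, adjusted p = 1.0, edgeR). *Timeless*, of the fork protection complex, came next by unadjusted p with 4.93, 5.86, 4.94 and 5.63 CPM in WT and 5.02, 4.65, 4.43 and 4.16 CPM in KO (log2 fold change -0.23, SE 0.11). *Cdc45*, of the helicase, had 1.58, 1.93, 1.96 and 2.24 CPM in WT and 1.52, 1.69, 1.6 and 1.45 CPM in KO (log2 fold change -0.30, SE 0.15). In both the groups overlapped through the lower WT mice.

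Of 64 other mitosis genes, 17 were higher and 47 lower in KO by point estimate (median -0.11), and 0 passed. The median ran from -0.194 without KO replicate 1 to -0.05 without KO replicate 2. An unadjusted p under 0.05 was found for 2, both lower in KO, where 1.08% of all genes tested were lower at that p. *Kifc1*, a minus-end kinesin, had 1.76, 2.42, 2.26 and 2.2 CPM in WT and 1.76, 1.51, 1.33 and 1.67 CPM in KO (log2 fold change -0.47, SE 0.16). KO replicate 1 was just below WT replicate 1, so the groups did not overlap. They also did not overlap for *Zwint*, a kinetochore gene that neurons express too, named for this after its values were seen, with the KO mice above (708 to 815 CPM in WT and 831 to 1028 in KO, log2 fold change 0.20, SE 0.10). These 2 of 64 genes, in opposite directions, are 3.12%, against 1.53% of all genes tested. *Anln*, an anillin of the cleavage furrow that myelinating oligodendrocytes also express, had 43.1, 36.0, 39.9 and 40.2 CPM in WT and 29.9, 26.5, 38.7 and 31.4 CPM in KO (log2 fold change -0.33, SE 0.12). KO replicate 3 lay within the WT range and the other KO mice below it. *Ncapd2*, of condensin, followed with 20.5, 21.2, 21.1 and 23.3 CPM in WT and 21.2, 17.2, 17.6 and 19.3 CPM in KO (log2 fold change -0.20, SE 0.09), where KO replicate 1 lay within the WT range.

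Sex was spread unevenly over the genotypes, so females were compared with males with genotype in the same edgeR fit. Past the adjusted threshold there were 0 of 40 members, against a background of 3.72% of all genes tested. At an unadjusted p under 0.05, which 15.9% of all genes tested reached, there were 2 members, both lower in females. *Ccne1* had a log2 difference of -0.71 (SE 0.28, adjusted p = 0.262) and *Cenpa* of -0.50 (SE 0.20, adjusted p = 0.269, edgeR). Without KO replicate 1 there were 2 members past the adjusted threshold, *Ccne1* and *Mcm6*, and 1462 of all genes. In the wider lists 4 genes passed, 2 of 54 S phase and 2 of 64 mitosis genes, all lower in females. These shares are near the 2.87% of all genes tested that passed and were lower in females. The 4 were *Atad2* (-0.92), *E2f1* (-0.96), *Incenp* (-0.53) and *Psrc1* (-1.48 on the log2 scale). *E2f1*, the activator of S phase genes, was at 17.6 CPM in WT replicate 2, 11.7 in KO replicate 3 and 4.94 to 9.53 in the other mice. All 4 had their highest values in WT replicate 2 and KO replicate 3, the males with the most cortical marker RNA, and 0 passed without WT replicate 2 or without KO replicate 3. The part of cortical tissue in these differences was not tested, and sex and this marker level cannot be told apart with 3 males.

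How reads were assigned limits some members. The exons of 11 members overlap an exon of another gene, in 10 on the opposite strand, and whether the counting used strand is not given in the sources used here. *Pcna-ps2*, a processed copy of *Pcna*, had up to 290 counts a mouse, against at least 1530 for *Pcna*.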

How the data were processed

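Per the labels and the study's methods, polyA RNA of 1 hemisphere a mouse was sequenced on 1 NovaSeq SP lane, reads were demultiplexed with bcl2fastq 2.20, and Salmon was run against Gencode M29. The authors deposited estimated counts per gene and, for each mouse, estimated counts and TPM per transcript, none of them normalized between mice. How transcripts were summed to genes is not given in the sources used here. Here the estimated counts were rounded and normalized by TMM to CPM, and KO was compared with WT by edgeR 4.0.16 (quasi-likelihood test, filterByExpr, no covariate) in R 4.3.3, with Benjamini-Hochberg adjustment over 17669 genes and a threshold of an adjusted p of 0.1. Standard errors are the log2 fold change over the square root of F. Symbols were found for 94.8% of identifiers. TPM was summed over transcripts named in Gencode M21.

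The members and lists were chosen with earlier results of these data known. All members are accounted for. Values in every mouse are given for 6 usual markers, for members past a threshold or without overlap, and for the extremes of TPM and fold change, and in the wider lists for the 3 smallest p. *Ccne1* and the 3 high and 3 low mice were picked after values were seen. Marker lists were summed as CPM. The alternatives were DESeq2 1.42.0 and its size factors, the unfiltered table, a floor of 10 counts for each mouse, sex, replicate number, females only, and each mouse left out. The 6 mice with lower cortical markers, and leaving out mice in the comparison of sexes, were added after seeing the data. The fit was first run on simulated data, without change and with planted changes larger than any estimated for a member. That run does not show how the fit performs at changes of the members' size.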

Additional observations from a re-analysis of the deposited data

Results flagged for a closer look

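In each genotype of 4 mice, the highest and lowest mouse was checked for its gap to the nearest other mouse over the range of the group. Of 112 such groups, for single genes and for summed marker lists, 4 (3.57%) had a gap past the 95% critical value of Dixon, which chance passes in about 1 group in 20. *Plk1* was at 2.385 CPM in WT replicate 4, with the nearest WT mouse at 1.726. *Cenpf* was at 4.351 CPM in KO replicate 4, with the nearest KO mouse at 3.686. The summed cortical excitatory neuron markers were at 2023 CPM in WT replicate 2, with the nearest WT mouse at 370.0. The summed oligodendrocyte precursor markers were at 220.3 CPM in KO replicate 3, with the nearest KO mouse at 247.2.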

How the results depend on the processing

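In KO against WT, 0 members passed the adjusted threshold in any of 17 alternatives (edgeR or DESeq2), and 25 of the 40 changed sign in at least 1. The genes of all those tested past the threshold, 1 as reported, were 13 with DESeq2, 2 without a filter, 0 with a minimum of 10 counts, 2 with sex in edgeR, 213 with sex in DESeq2, 0 with the replicate block, 3 in females only, 0 in the 6 mice with lower cortical markers and 0 to 3 with 1 mouse left out. Mitosis members at an unadjusted p under 0.05 were 1 in females only and 0 to 1 with 1 mouse left out. Genes that differed by sex were 10 to 1462 over all genes, 0 to 2 among members and 0 to 4 in the wider lists with 1 mouse left out. The replicate numbers did not pair the mice (correlations of same-numbered mice -0.225, -0.225, 0.077 and 0.267), and the block left 0 members past the threshold.

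Signs that changed, as log2 fold changes, were as follows, and the causes were not tested. With sex in edgeR and in DESeq2 they were -0.027 and -0.028 for *Ccne1*, 0.097 and 0.097 for *Cdc6*, 0.028 and 0.026 for *Mcm4*, and 0.027 and 0.026 for *Cdc20*. With the replicate block they were 0.055 for *Cdt1*, -0.014 for *Mcm6*, -0.065 for *Aurkb*, -0.0081 for *Bub1b* and 0.023 for *Birc5*. In females only they were -0.19 for *Ccne2*, 0.13 for *Cdt1*, -0.012 for *Mcm6*, 0.013 for *Pcna*, 0.23 for *Birc5*, 0.0054 for *Cenpf*, -0.022 for *Kif11* and 0.077 for *Kif20a*. In the 6 mice they were 0.18 for *Cdt1*, 0.073 for *Mcm2*, 0.012 for *Mcm3*, 0.038 for *Pcna*, 0.0012 for *Rrm1*, 0.016 for *Rrm2*, 0.037 for *Cdk1*, 0.038 for *Ccna2*, 0.12 for *Ccnb1*, 0.16 for *Ccnb2*, 0.23 for *Birc5*, 0.051 for *Kif20a*, 0.016 for *Tpx2* and 0.017 for *Prc1*.

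With 1 mouse left out in turn the ranges of the members that changed sign were -0.16 to 0.44 for *Ccne1*, -0.32 to 0.18 for *Cdc6*, -0.18 to 0.16 for *Cdt1*, -0.31 to 0.022 for *Mcm2*, -0.25 to 0.059 for *Mcm3*, -0.1 to 0.027 for *Mcm4*, -0.16 to 0.26 for *Mcm6*, -0.077 to 0.045 for *Pcna*, -0.14 to 0.026 for *Rrm1*, -0.23 to 0.022 for *Rrm2*, -0.23 to 0.081 for *Cdk1*, -0.18 to 0.089 for *Ccna2*, -0.26 to 0.12 for *Ccnb1*, -0.38 to 0.085 for *Ccnb2*, -0.2 to 0.24 for *Aurkb*, -0.11 to 0.2 for *Bub1b*, -0.11 to 0.17 for *Birc5*, -0.18 to 0.07 for *Cenpf*, -0.08 to 0.087 for *Kif11*, -0.18 to 0.056 for *Kif20a*, -0.2 to 0.011 for *Tpx2*, -0.16 to 0.031 for *Prc1*, -0.24 to 0.074 for *Cdc20* and -0.048 to 0.36 for *Ube2c*. Medians then ran from -0.162 to -0.003 for S phase and from -0.222 without KO replicate 1 to 0.026 without KO replicate 3 for mitosis. With 31 to 2653 counts a mouse, depth limits the rarest members most.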
